A study of Mus musculus with 12 samples.

Results

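Expression in the aortic arch was compared between 2 inbred mouse strains, C57BL/6 (B6) and 129S6/SvEvTac (129). The comparison rested on the 3 arrays whose titles name the arch of B6 and the 3 that name the arch of 129, out of 12 arrays in the series, and covered all 22180 genes that had a transcript cluster of a single symbol. The other arrays held the arch of DBA/2J (DBA), 3 arrays, and the root of 129, 3 arrays. All mice were males of 2 to 5 months described as wild-type on chow, with no transgene or treatment named for any group, although the series text names apoE strains beside the word wild-type. Each array held RNA of a pool of mice, 4 mice in B6 arch replicate 1 and 5 in every other arch pool, so that differences between single animals were averaged and could not be measured. Values are log2 intensities, so that 1 unit is a doubling, and no detection calls were used, which means that a dim gene could not be told from background.

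The arch is a curved stretch of the aorta in which layers of smooth muscle cells and elastic fibres lie between an endothelial lining and an outer adventitia of fibroblasts, leukocytes, nerves and fat. It is a common site of atherosclerotic plaque in mice, and B6 and 129 are parental strains of crosses used to map plaque loci. Inbred strains also differ by deletions, duplications and retroviral insertions that can switch a gene off or raise it in every tissue, and clusters of interferon-induced genes are known for such differences.

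The arrays showed the vessel wall in both strains. Myh11, the smooth muscle myosin heavy chain, was at 12.93, 12.80 and 12.85 in B6 and at 12.92, 12.82 and 12.89 in 129, and Acta2, smooth muscle actin, was at 13.23 to 13.33 on all 6 arrays. Cdh5, the cadherin of endothelial junctions, was at 10.79 to 11.39. Apoe, whose product clears lipoproteins, was at 7.25, 6.85 and 6.71 in B6 and at 6.42, 6.44 and 6.11 in 129, without passing the test (adjusted p = 0.125). The median gene level was 5.61. Whether the mice carried an intact Apoe gene was not tested, so these values do not settle the genotype. One array of the 6 stood apart. B6 arch replicate 1 had a median over 18 hepatocyte genes that was 4.21 above the 129 arch mean, against 0.14 and -0.09 on the other B6 arrays, while its median over 11 brown adipocyte genes was at -2.45, against 0.38 and 0.04. The first principal component of the 6 arrays (49.8% of the variance) held this array at 69.1 and the other 5 between -21.6 and -2.4. Each result below was therefore computed again without it.

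Of the 22180 genes, 322 (1.45%) differed between the strains at an adjusted p under 0.05 in limma, 181 higher in B6 (0.816%) and 141 lower (0.636%). The difference was at least 2-fold for 192 of these genes and at least 4-fold for 36. The 3 B6 arrays did not overlap the 3 129 arrays for any of the 322, but this held for 17.5% of all genes tested. Omission of each of the 9 arch arrays in turn left 96 genes called every time (0.433%), 52 higher and 44 lower in B6. Without B6 replicate 1 a total of 268 genes were called (1.21%), of which 200 were among the 322. Omission of a 129 array lowered the number most, to 126, 117 and 116, and it was 182 without B6 replicate 3. The Tukey-Kramer test named in the study's methods, with the same adjustment, called 57. The median difference over all genes was -0.02, and 183 of the called genes lay above the median gene level of 5.61 in both strains, whereas 48 lay below it in both. Counts of called list members below are to be read beside the shares of 1.45%, 0.816% and 0.636%.

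**Figure D1:**
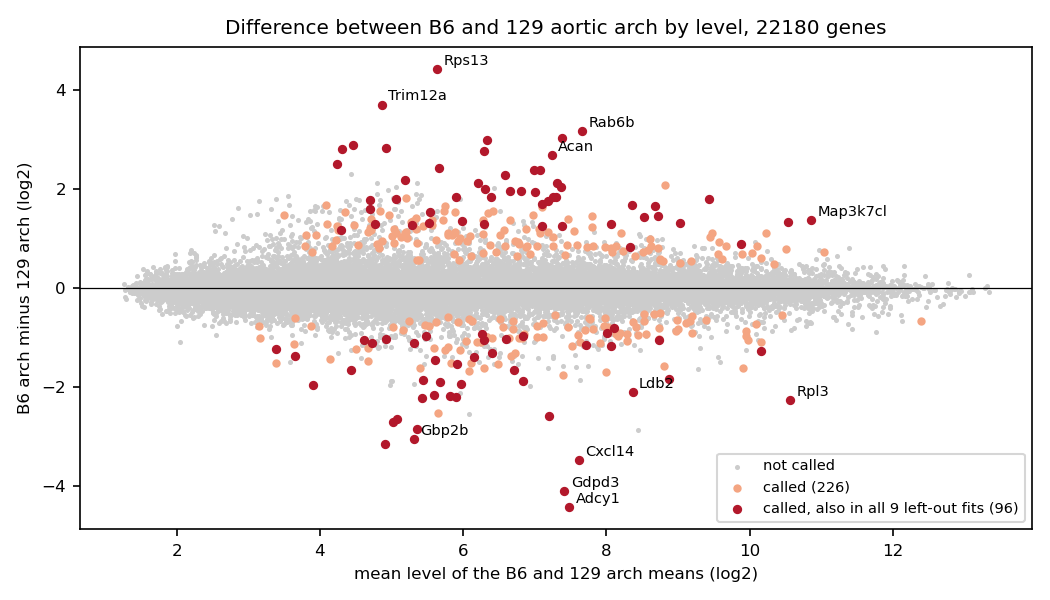
Each point is 1 of 22180 genes, with the mean of the B6 and 129 arch levels on the x axis (log2) and the B6 minus 129 difference on the y axis (log2). The 96 genes called in all 9 left-out fits (dark red) include Rps13 at 4.43 and Adcy1 at -4.43, and called genes lie at low and at high levels.

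The genes lower in B6 were led by a pair of signalling enzymes. Adcy1, an adenylate cyclase that makes cyclic AMP in response to calcium and calmodulin, was at 5.22, 5.39 and 5.21 on the B6 arrays and at 9.63, 9.54 and 9.93 on the 129 arrays. It was thus 21.6-fold higher in 129 (log2 difference -4.43 ± 0.44, SE, adjusted p = 0.00184), and the other 8 adenylate cyclase genes measured lay between -0.07 and 0.70 with none called. Gdpd3, which cleaves lysophospholipids to lysophosphatidic acid, was at 5.94, 4.81 and 5.34 in B6 and at 9.34, 9.78 and 9.28 in 129, a difference of -4.11 ± 0.27 (adjusted p = 0.000239). Both genes were bright in 129 alone of the pair of strains, and the other 7 genes of the glycerophosphodiesterase family were not called.

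Cxcl14, a chemokine made by epithelia, fibroblasts and fat, was at 5.00, 6.36 and 6.28 in B6 and at 9.03, 9.79 and 9.24 in 129 (-3.47 ± 0.39, adjusted p = 0.00302). Its level on B6 replicate 1 was the lowest of the 3, and the difference without that array was -3.03. Klk1b22, a serine protease of the kallikrein family, had a difference of -2.85 ± 0.29 and Snord13, a small nucleolar RNA that guides modification of ribosomal RNA, one of -2.59 ± 0.22. BC018473, a long noncoding RNA, was at 2.85 to 3.71 in B6 and 6.35 to 6.68 in 129. Olig1, a transcription factor of the oligodendrocyte lineage, was at 4.06 to 4.62 in B6 and 6.39 to 6.67 in 129, and Lypd6, a membrane-anchored protein of the Ly6 family, was at 4.52 to 4.97 and 6.67 to 7.17. None of these groups overlapped, which held for 17.5% of all genes tested. All of these calls were kept in every fit that left out 1 array. Both were conditions by which these genes were chosen.

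Among genes higher in B6, Rps13, which encodes a protein of the ribosome's small subunit, was at 7.57, 7.84 and 8.14 in B6 and at 3.19, 3.82 and 3.26 in 129 (log2 difference 4.43 ± 0.20, adjusted p = 8.25e-05). The 129 mean of 3.42 was no higher than that of H2-Ea, a gene silent in both strains. The 129 signal could thus not be told from background, and the true difference may be larger or smaller than the one measured. Whether the probes of this cluster match the 129 transcript was not tested. Rpl3, of the large subunit, went the other way, at 9.53, 9.27 and 9.49 in B6 and 11.82, 11.59 and 11.69 in 129 (-2.27 ± 0.13, adjusted p = 9.32e-05). These were the sole called members among 19 ribosomal protein genes on the list, whose median difference was -0.03. Rps3a1, a small-subunit gene outside the list and picked with its values known, was at 9.28, 9.65 and 9.65 in B6 and 10.74 to 10.88 in 129 (-1.28 ± 0.14, adjusted p = 0.00302), a call kept in all left-out fits, and its second cluster was at -0.18. The brightest of the 3 transcript clusters of Rpl3 gave this value. The other clusters were at 0.44 and -0.32, and their mean with the first gave -0.72 (adjusted p = 0.0198), so the clusters of this gene disagreed. Ribosomal protein genes have many processed copies in the genome, and which copy a cluster reads was not tested.

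Rab6b, a small GTPase of Golgi transport known mainly from neurons, was at 8.97, 9.36 and 9.43 in B6 and at 5.85, 6.31 and 6.08 in 129 (9.02-fold, 95% interval 6.89 to 11.8). Its second transcript cluster was higher in B6 as well, by 1.07. Mcm6, a subunit of the helicase that unwinds DNA at replication, was at 8.32, 8.03 and 8.17 in B6 and at 5.93, 5.60 and 5.87 in 129 (5.20-fold, adjusted p = 8.25e-05). It was the only one of 15 cell cycle genes called, and its partner subunits Mcm2, Mcm3, Mcm4, Mcm5 and Mcm7 had differences of 0.00, -0.62, -0.29, -0.29 and -0.16 with none called.

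Others near the top were neural adhesion molecules and repeats of gene families. Cntn6, a contactin of neurons, was at 7.08, 5.52 and 6.42 in B6 and 3.32 to 3.60 in 129 (2.84 ± 0.32), and Igsf9, an immunoglobulin-family protein of dendrites, was at 8.34, 7.48 and 7.21 against 4.79 to 5.05 (2.77 ± 0.27). Serpina1d, an antitrypsin gene of the liver, was at 6.49, 6.04 and 5.20 in B6 and 2.95 to 3.13 in 129. Its difference was 2.90 with B6 replicate 1, the array with hepatocyte transcripts, and 2.61 without it. Zfp982, a zinc finger gene, was higher in B6 by 2.82 ± 0.18, Plaat1, an acyltransferase that acts on phospholipids, by 2.43 ± 0.23, the transcribed pseudogene Gm3893 by 3.03 ± 0.22 and the long noncoding RNA 2610507I01Rik by 3.0 ± 0.16. Serpina1d, Klk1b22, Gm3893, Zfp982, Gbp2b and the Trim genes below have close paralogues, so that their signals may include those of a sister gene.

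**Figure D2:**
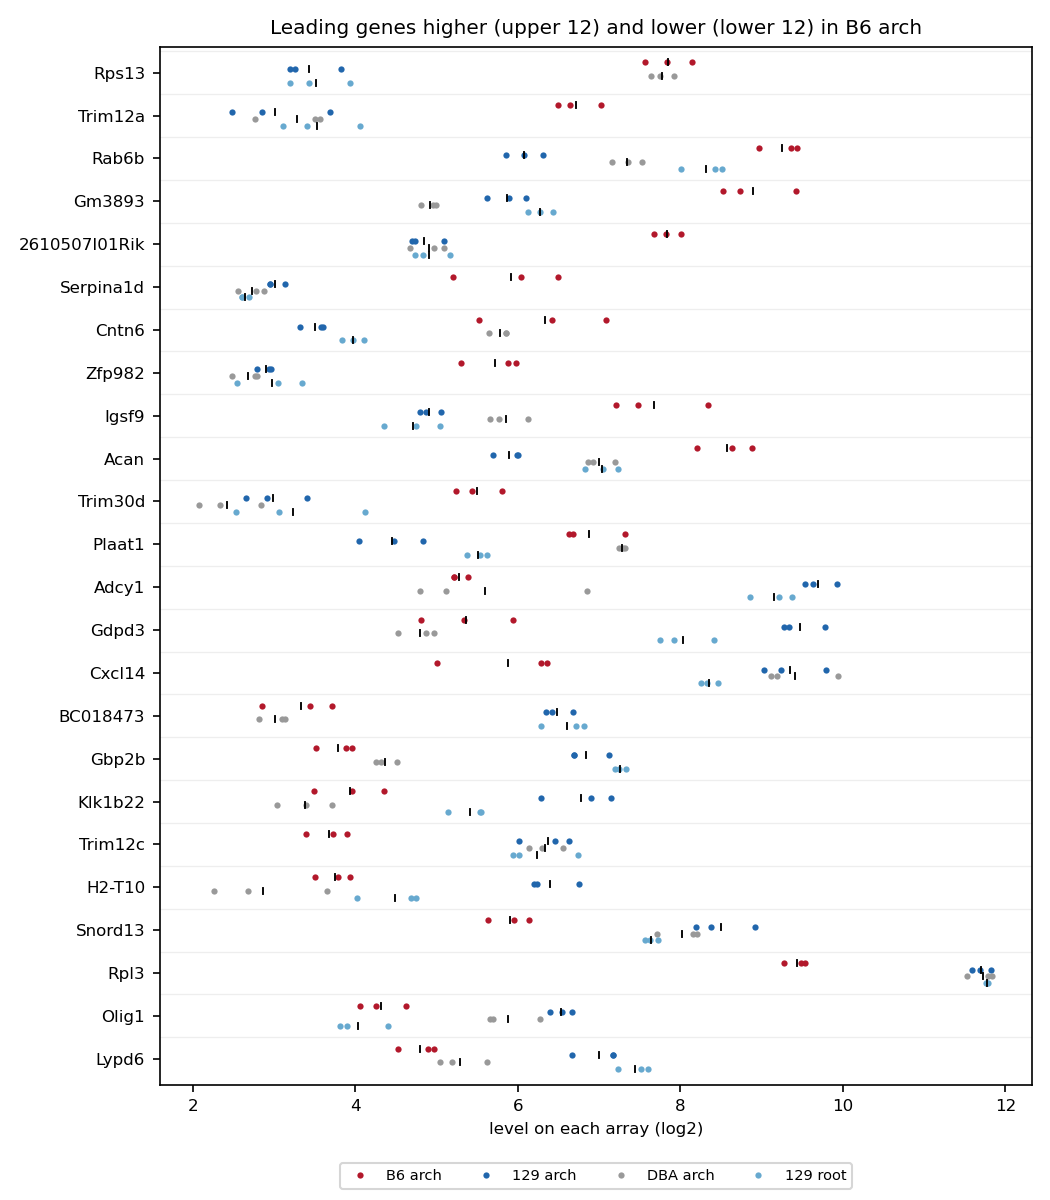
Levels (log2, x axis) of the 12 genes with the largest differences in each direction among those called in all fits, with 1 point per array and a black tick at the group mean. B6 arch points (red) are apart from 129 arch points (dark blue) in every gene, by the rule that chose the genes. DBA arch (grey) and 129 root (light blue) are plotted beside them.

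Of the matrix genes, Acan stood out. It encodes aggrecan, a large proteoglycan of cartilage that also occurs in the arterial wall, and was at 8.88, 8.21 and 8.63 in B6 and at 5.99, 6.00 and 5.69 in 129, 6.40-fold higher (95% interval 4.80 to 8.53, adjusted p = 0.000243). Of 20 cartilage matrix genes 3 rose in B6, none fell and 17 were not called, where 0.816% of all genes rose, with a list median of 0.20, or 0.08 without B6 replicate 1, against -0.02 over all genes. The others were Cilp, a matrix protein of cartilage that binds TGF-beta, at 1.51 ± 0.28 (adjusted p = 0.0375), and its relative Cilp2 at 1.36 ± 0.24 (0.0344). Both of these calls failed without B6 replicate 1 or 3 or any 129 array, that of Cilp also without DBA replicate 2 or B6 replicate 2 and that of Cilp2 also without DBA replicate 1 or 3 (0.0513 to 0.141, range over all alternatives 0.00195 to 0.338), whereas that of Acan held throughout. Col2a1, the main collagen of cartilage, was at 6.64, 5.74 and 5.30 in B6 and 4.86 to 5.26 in 129 with no call (adjusted p = 0.310).

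Fgf2, a growth factor for smooth muscle and endothelium chosen here after its values were seen, was at 8.46, 7.77 and 8.30 in B6 and at 6.23, 6.35 and 6.40 in 129 (3.59-fold, adjusted p = 0.00157). Clec3b, a lectin that binds plasminogen, was the sole called member of 15 adventitial fibroblast genes, at 8.77, 8.46 and 8.33 in B6 and 7.28, 6.80 and 7.14 in 129 (1.45 ± 0.21, adjusted p = 0.0125). That call failed when 129 replicate 2 or 3 was omitted (0.0537 to 0.0571, range 0.00226 to 0.179).

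The contractile genes were almost level. Of 17 smooth muscle genes 2 fell in B6, where 0.636% of all genes fell, 15 were not called and the list median was 0.00. Des, the muscle intermediate filament desmin, was at 9.51, 9.51 and 9.35 in B6 and at 10.54, 10.60 and 10.37 in 129 (-1.05 ± 0.18, adjusted p = 0.0266), and Actg2, the enteric form of smooth muscle actin, was at 10.09 to 10.26 against 10.65 to 10.86 (-0.55 ± 0.11, adjusted p = 0.0477). The call of Des failed when any B6 or 129 array was omitted (0.0555 to 0.110, range 0.00251 to 0.240), and that of Actg2 in all 9 such fits (0.0666 to 0.176). Des is also expressed in cardiac and skeletal muscle. The 14 cardiac muscle genes had a median of -0.82 with none called, at -0.64, -0.88 and -0.94 on the B6 arrays and -0.54, 0.19 and 0.22 on the 129 arrays, and their part in the value of Des was not tested.

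Elastic fibre genes (16 measured, median 0.17), collagen chains (17, median 0.35), vascular proteoglycans (17, median -0.07), matrix proteases and their inhibitors (16, median 0.07) and endothelial genes (16, median -0.09) had no called member. The collagen and elastic fibre medians shrank to 0.22 and 0.07 without B6 replicate 1. Of 15 coagulation and fibrinolysis genes 1 rose and 1 fell, where 0.816% of all genes rose and 0.636% fell. Plat, the tissue plasminogen activator, was at 10.10, 9.93 and 10.09 in B6 and 8.89 to 9.22 in 129 (0.94 ± 0.14, adjusted p = 0.0178), and Procr, the endothelial receptor of protein C, was at 7.22 to 7.57 in B6 and 8.15 to 8.34 in 129 (-0.83 ± 0.12, adjusted p = 0.0146). The other 13 were not called, and both calls failed without B6 replicate 3 or any 129 array (0.0504 to 0.0711, range 0.000661 to 0.162).

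The strains differed in both directions within clusters of immune genes. Trim12a, Trim12c, Trim30c, Trim30d and Trim34a lie close together on chromosome 7 and encode tripartite-motif proteins, a family with roles in antiviral defence that is related to the human restriction factor TRIM5. Trim12a was at 6.49, 7.02 and 6.64 in B6 and at 2.48, 3.69 and 2.85 in 129 (3.71 ± 0.32, adjusted p = 0.00105). Its paralogue Trim12c was the reverse, at 3.73, 3.90 and 3.39 in B6 and at 6.46, 6.63 and 6.02 in 129 (-2.70 ± 0.20, adjusted p = 0.000351). Each strain was thus bright for 1 of the pair and dim for the other.

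Trim30d was at 5.80, 5.44 and 5.24 in B6 and at 2.91, 2.65 and 3.40 in 129 (2.51 ± 0.25, adjusted p = 0.00184), and Trim30c was at 4.61 to 4.88 against 3.04 to 3.72 (1.29 ± 0.21, adjusted p = 0.0215). Trim34a was at 5.01, 5.51 and 5.20 in B6 and at 4.02, 3.81 and 4.46 in 129 (1.14 ± 0.22, adjusted p = 0.0412). Of 11 genes of this cluster measured, 4 rose and 1 fell, where 0.816% of all genes rose and 0.636% fell. The list median was -0.12. The 6 not called included Trim30a, an inhibitor of inflammatory signalling, at -0.24, and Trim21, an antibody receptor of the cytosol, at -0.21. The call of Trim30c failed without any B6 array or 129 replicate 1 or 2 (0.0554 to 0.0708, range 0.00549 to 0.236) and that of Trim34a in all of the fits that left out 1 array but the one without DBA replicate 3 (0.0522 to 0.159, range 0.00846 to 0.330).

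Of 18 interferon-induced genes on the list 2 rose in B6, where 0.816% of all genes rose, none fell and 16 were not called. Their differences ran from -0.88 to 1.20, 14 above 0 and 4 below, with a median of 0.43 with or without B6 replicate 1. Bst2, or tetherin, which holds budding virus on the cell, was at 7.15, 7.36 and 7.07 in B6 and at 6.30, 6.32 and 6.13 in 129 (0.95 ± 0.14, adjusted p = 0.0149). Oasl2, a relative of the oligoadenylate synthetases, was at 7.80, 8.06 and 7.11 in B6 and 6.33 to 6.59 in 129 (1.20 ± 0.23, adjusted p = 0.0430). Ifit1, Ifit3 and Isg15, standard readouts of type I interferon, were at 0.50, 0.20 and 0.49 with none called. The Bst2 call failed when any 129 array was omitted (0.0568 to 0.0686, range 0.00315 to 0.137), and the Oasl2 call in 8 of 9 omissions, all but B6 replicate 3 (0.0602 to 0.163, range 0.00841 to 0.348).

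Among 14 GTPases that interferon-gamma induces, Irgm2, which controls the GTPases that attack parasite vacuoles, was at 7.89, 8.36 and 7.95 in B6 and at 6.32, 6.34 and 6.27 in 129 (3.38-fold, 95% interval 2.63 to 4.35, adjusted p = 0.00126). Gbp2b, of the guanylate-binding proteins, was at 3.96, 3.89 and 3.51 in B6 and at 6.69, 7.12 and 6.69 in 129 (-3.05 ± 0.17, adjusted p = 8.25e-05). Both calls were kept in all left-out fits, and the other 12 members were not called.

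The Ifi200 genes on chromosome 1, which encode sensors and regulators that bind DNA, were also mixed, with 2 risen, 1 fallen and 5 not called of 8. Over all genes 0.816% rose and 0.636% fell. Ifi202b, an inhibitor of the DNA sensor Aim2, was at 2.66, 2.86 and 2.75 in B6 and at 4.07, 3.82 and 4.10 in 129 (-1.24 ± 0.13, adjusted p = 0.00188). Ifi209 was at 5.65, 5.96 and 5.30 against 4.60, 4.49 and 4.21 (1.20 ± 0.23, adjusted p = 0.0412), and Ifi207 was at 4.26 to 4.89 against 3.38 to 3.45 (1.08 ± 0.20, adjusted p = 0.0368). Both of the latter calls failed without DBA replicate 1, B6 replicate 2 or 3 or any 129 array, and that of Ifi209 also without DBA replicate 2 or B6 replicate 1 (0.0501 to 0.160, range 0.00194 to 0.339).

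The promoters of these genes are shown because the groups differed by gene and not by family. Interferon-induced promoters commonly hold a pair of GAAA repeats, and the letters GAAANNGAAA were searched on both strands of the window from 250 bases before to 50 bases after each start in the RefSeq table of GRCm38.p6. This motif was in 3.44% of all 32851 windows. Over the 4 lists (interferon-induced, GTPase, Trim and Ifi200 genes) it was in 8 of the 12 called genes and in 17 of the 25 genes that were not called and matched the table by symbol, so it did not set the called genes apart. The stretches around the match are printed 5′ to 3′ on the gene's strand, with the motif in capitals, for 3 genes called in opposite directions and the Trim genes with the largest differences.
Bst2, chr8:71537547-71537642, minus strand: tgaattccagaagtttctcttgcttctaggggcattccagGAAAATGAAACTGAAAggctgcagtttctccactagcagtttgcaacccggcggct
Irgm2, chr11:58214873-58214962, plus strand: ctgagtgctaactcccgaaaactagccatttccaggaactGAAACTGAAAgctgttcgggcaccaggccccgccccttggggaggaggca
Gbp2b, chr3:142594670-142594759, plus strand: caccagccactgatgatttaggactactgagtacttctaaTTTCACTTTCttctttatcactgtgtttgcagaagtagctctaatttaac
Trim12a, chr7:104315466-104315525, minus strand: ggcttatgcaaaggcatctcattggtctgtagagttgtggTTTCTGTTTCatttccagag
Trim12c, chr7:104353329-104353418, minus strand: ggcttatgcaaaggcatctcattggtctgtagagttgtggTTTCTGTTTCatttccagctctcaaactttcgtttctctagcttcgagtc
Trim30d, chr7:104507841-104507930, minus strand: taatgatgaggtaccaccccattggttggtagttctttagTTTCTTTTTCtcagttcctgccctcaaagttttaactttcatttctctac
In Bst2 the capitals hold 2 overlapping matches. The stretches printed for Trim12a and Trim12c were alike over their first 58 bases, motif included, although the genes differed in opposite directions. The sequence is that of the reference genome, which derives from C57BL/6, and the 129 sequence was not used here.

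Of 15 class I histocompatibility and peptide loading genes, H2-T10 was the only one called. It is annotated as a transcribed pseudogene of the nonclassical class I region and was at 3.50, 3.79 and 3.94 in B6 and at 6.75, 6.24 and 6.20 in 129 (-2.65 ± 0.32, adjusted p = 0.00515). H2-DMb2, which helps load peptides on class II molecules, was at 4.72 to 5.14 in B6 and 5.50 to 5.65 in 129 (-0.66 ± 0.13, adjusted p = 0.0470), with the other 10 class II genes not called. Its call failed in all left-out fits except the one without B6 replicate 2 (0.0602 to 0.161, range 0.00366 to 0.236).

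Among 19 inflammasome and inflammatory caspase genes, Casp4, the caspase that senses intracellular lipopolysaccharide, was at 6.59, 6.25 and 6.10 in B6 and at 4.55, 4.89 and 4.88 in 129 (1.54 ± 0.19, adjusted p = 0.00543). The 129 strains are known to carry an inactive Casp4 allele. Il18, a cytokine that inflammatory caspases mature, was lower in B6, at 5.31, 4.74 and 4.58 against 6.28, 6.53 and 6.21 (-1.46 ± 0.19, adjusted p = 0.00620). Both calls were kept in every left-out fit. C5ar2, a receptor of complement C5a, was at 7.20, 6.30 and 6.02 in B6 and 4.91 to 5.03 in 129 (1.55 ± 0.27, adjusted p = 0.0290), and Slamf9, of the Slam receptors of leukocytes, was at 7.46, 6.82 and 6.62 against 5.28, 5.84 and 5.64 (1.38 ± 0.24, adjusted p = 0.0286). These calls failed without DBA replicate 3, B6 replicate 2 or any 129 array, and that of C5ar2 also without DBA replicate 1 (0.0528 to 0.115, range 0.00631 to 0.290). The remaining 21 complement and 8 Slam family genes measured were not called.

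The median over 29 chemokine and receptor genes was -0.26. Of these genes 3 fell in B6, where 0.636% of all genes fell, none rose and 26 were not called. Besides Cxcl14 these were Ccr7, by which lymphocytes and dendritic cells home to lymph nodes, at 6.09, 6.06 and 6.08 in B6 and 7.20, 7.15 and 7.0 in 129 (-1.04 ± 0.11, adjusted p = 0.00221), and Cxcr2, the receptor by which neutrophils are drawn in, at 4.86, 5.81 and 5.04 against 6.50, 6.97 and 7.27 (-1.68 ± 0.31, adjusted p = 0.0375). The Ccr7 call was kept throughout, and that of Cxcr2 survived only the omission of DBA replicate 3 or of B6 replicate 2 (0.0506 to 0.141, range 0.00301 to 0.345). In whole tissue, fewer cells of a type and less RNA per cell cannot be told apart. Medians of leukocyte lists went both ways, at -0.14 for B cell genes and 0.16 for natural killer cell receptor genes. The part of leukocyte numbers in the called genes was not tested. The median over 12 genes of T cells and thymocytes was -1.33 with none called, at -2.01, -2.04 and -0.03 on the B6 arrays and 0.51, -0.42 and -0.15 on the 129 arrays, so B6 replicate 3 lay among the 129 arrays. Cd3e, of the T cell receptor complex, was accordingly at 6.12, 6.15 and 8.08 in B6 and 9.07, 8.09 and 7.98 in 129. The 16 macrophage genes had a median of 0.54, or 0.31 without B6 replicate 1, with none called.

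**Figure D3:**
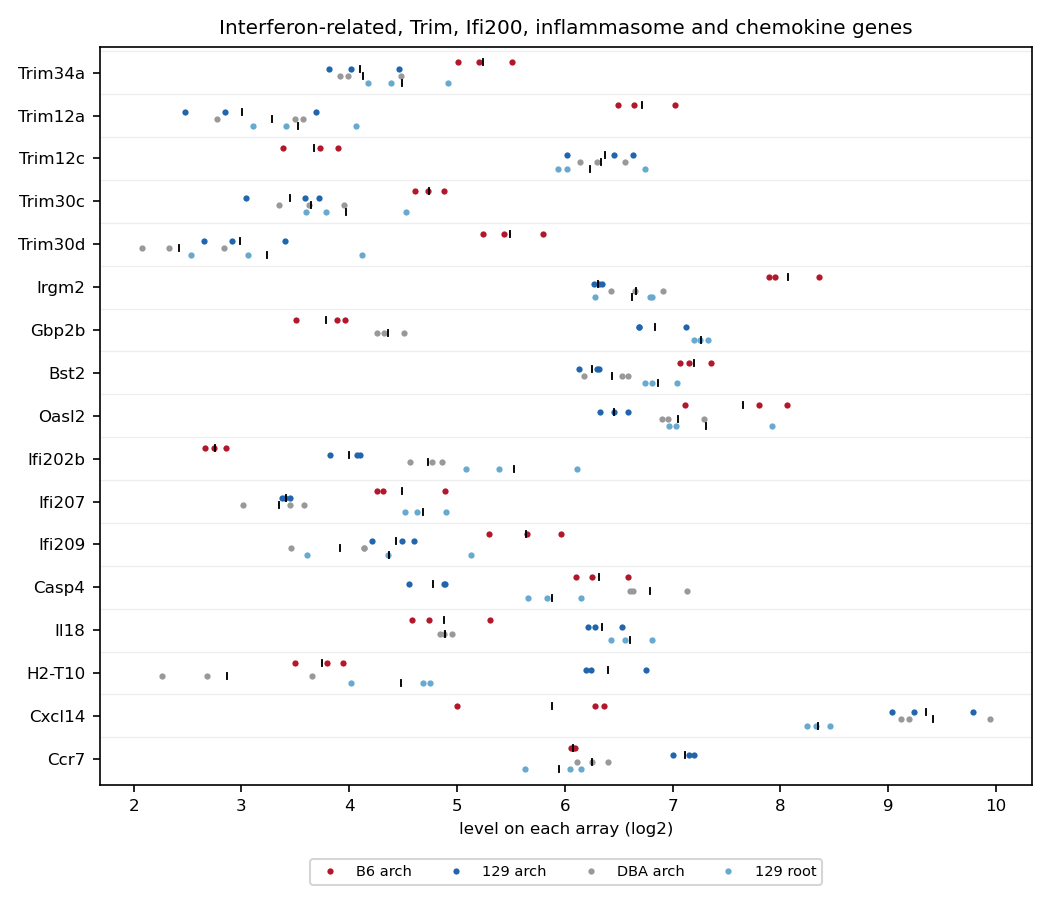
Levels (log2, x axis) of 17 immune genes of the lists, with 1 point per array and a black tick at each group mean. Trim12a is high in B6 arch alone (red, 6.49 to 7.02) while Trim12c is low in B6 arch alone (3.39 to 3.90).

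Candidates for the mapped plaque loci were called in 3 cases, and the study drew its candidates partly on these arrays. Of 23 Ath44 candidates measured Ifi202b, given above, was the one called. Of 16 Ath45 candidates Ada, the deaminase that degrades adenosine, was at 6.35, 6.01 and 6.56 in B6 and 7.54, 7.28 and 7.14 in 129 (-1.01 ± 0.18, adjusted p = 0.0328), and Plac9a, a small secreted protein gene, was at 10.70 to 11.02 against 10.05 to 10.17 (0.79 ± 0.12, adjusted p = 0.0142). Both calls failed when any 129 array was omitted, that of Plac9a also without B6 replicate 3 and that of Ada without DBA replicate 1 or B6 replicate 1 or 2 (0.0525 to 0.130, range 0.000953 to 0.268). Junb, an immediate early transcription factor that responds to handling as well as to signals, was at 8.07, 7.90 and 8.12 in B6 and 8.76 to 8.83 in 129 (-0.78 ± 0.14, adjusted p = 0.0308), 1 of 15 such genes. Its call failed when any B6 or 129 array was omitted (0.0590 to 0.122, range 0.00647 to 0.201).

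A list of genes with known deletions or duplications among inbred strains was also read, but it is no check of the B6 and 129 labels. Alad, an enzyme of haem synthesis with extra copies in some strains, was at 9.26, 9.75 and 9.56 in B6 and at 10.47, 10.46 and 10.23 in 129 (-0.87 ± 0.15, adjusted p = 0.0278), a call that failed without DBA replicate 1, B6 replicate 1 or 3 or any 129 array (0.0506 to 0.121, range 0.00307 to 0.218). Glo1, which detoxifies methylglyoxal and is duplicated in some strains, was at 8.82, 8.53 and 8.58 against 9.24, 9.35 and 9.21 (adjusted p = 0.0547, or 0.0440 without B6 replicate 1, range 0.00401 to 0.240). Nnt, a mitochondrial transhydrogenase with a deletion in some C57BL/6 stocks, was at 8.41, 7.81 and 8.06 against 8.95, 8.75 and 8.93 (adjusted p = 0.108). All 3 B6 arrays were below all 3 129 arrays in each of these genes, but 17.5% of all genes tested had no overlap in 1 direction or the other. H2-Ea, a class II chain that is silent in the histocompatibility haplotype both strains carry, was at 3.23 to 3.48 on all 6 arrays and at 8.86 to 9.45 on the DBA arch arrays.
Disc1, Klrd1, Mx1, Pla2g2a, Tyr, Nlrp1b and Naip5, also on that list, were at 2.88 to 5.64 on the 6 arrays and were not called (adjusted p = 0.574 to 0.980). Hc, complement C5 of the liver, was at 7.74 on B6 replicate 1 and at 3.15 to 3.77 on the other 5 arrays.

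Some values turned on B6 arch replicate 1. Alb, which encodes the albumin that hepatocytes secrete, was at 12.75 on that array and at 4.09 and 5.05 on the other B6 arrays, Ttr, the transthyretin of liver and choroid plexus, at 9.75 against 3.85 and 3.94, and Apoa1, the main protein of high-density lipoprotein, at 7.76 against 5.22 and 4.86. Ucp1, the uncoupling protein of brown fat, was at 10.02 against 12.80 and 12.57, and Adipoq, the adipocyte hormone adiponectin, at 5.91 against 8.26 and 7.74. The 3 arrays of 129 were at 12.26 to 12.60 for Ucp1 and at 7.69 to 8.01 for Adipoq, close to the other B6 arrays. Nppa, the atrial natriuretic peptide, and Sftpc, a lung surfactant protein, were at or under 5.88 and 4.17 on all 6 arrays.

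Without that array 68 genes were called that had not been before, 23 higher and 45 lower in B6. Several are enzymes abundant in liver. Hal, which starts the breakdown of histidine, was at 7.09 on replicate 1 but at 4.27 and 3.06 on the other B6 arrays, and at 7.20, 7.29 and 7.55 in 129. Its difference was -2.54 with the array (adjusted p = 0.225) and -3.69 without it (adjusted p = 0.00144, range 0.00144 to 0.882 over all alternatives). Fbp1, a fructose bisphosphatase of gluconeogenesis, was at 9.24, 4.10 and 3.91 in B6 and at 7.36, 6.75 and 6.70 in 129, and its difference of -2.93 without the array (adjusted p = 0.00111, range 0.00111 to 1) was -1.18 with it.

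Ahcy, which hydrolyses S-adenosylhomocysteine, was at 9.20, 6.15 and 6.47 in B6 and at 8.46, 8.43 and 8.50 in 129, with -2.15 without the array (adjusted p = 0.00231) and -1.19 with it. Replicates 2 and 3 of B6 were thus lower than every 129 pool in these 3 enzymes, while replicate 1 was above every 129 pool for Fbp1 and Ahcy and just below them for Hal. Rbp7, a retinol-binding protein of fat and endothelium, was lowest on replicate 1, at 5.29, 8.09 and 7.64 in B6 and 10.25, 9.68 and 9.71 in 129, with -2.01 without replicate 1 (adjusted p = 0.0126) and -2.87 with it (0.0689). F2rl2, a thrombin receptor, was at 5.32, 6.59 and 5.92 against 4.02 to 4.28 (2.15 without the array, adjusted p = 0.0440) and the odorant receptor Olfr825 was at 2.60, 4.45 and 4.63 against 2.65 to 3.15 (1.66, adjusted p = 0.0102). Over all alternatives the adjusted p of Ahcy, Rbp7, F2rl2 and Olfr825 ranged from 0.00231 to 1.

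The 122 genes that lost their call without replicate 1 did so narrowly, with adjusted p of 0.0505 to 0.116. The largest were Retnlg, a resistin-like protein of neutrophils, at 4.14, 5.31 and 3.71 in B6 and 6.73, 6.76 and 7.27 in 129 (-2.53 ± 0.50, adjusted p = 0.0480), Tnfaip6, a hyaluronan-binding protein of inflamed tissue, at 6.41, 6.12 and 5.81 against 4.70, 3.53 and 4.63 (1.82 ± 0.30, adjusted p = 0.0225), Cxcr2, and the pseudogene Pisd-ps2, at 7.10, 5.91 and 6.69 against 4.45 to 5.29 (1.65 ± 0.31, adjusted p = 0.0407). Their differences without the array were -2.41, 1.67, -1.49 and 1.38, so their sizes changed little. The arrays of the strains did not overlap, which held for 17.5% of all genes tested. The calls of Retnlg, Cxcr2 and Pisd-ps2 also failed without B6 replicate 3, any 129 array or a pair or more of the DBA arrays, and that of Tnfaip6 without B6 replicate 2 or 129 replicate 3 (0.0506 to 0.174, range 0.00301 to 0.417).

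**Figure D4:**
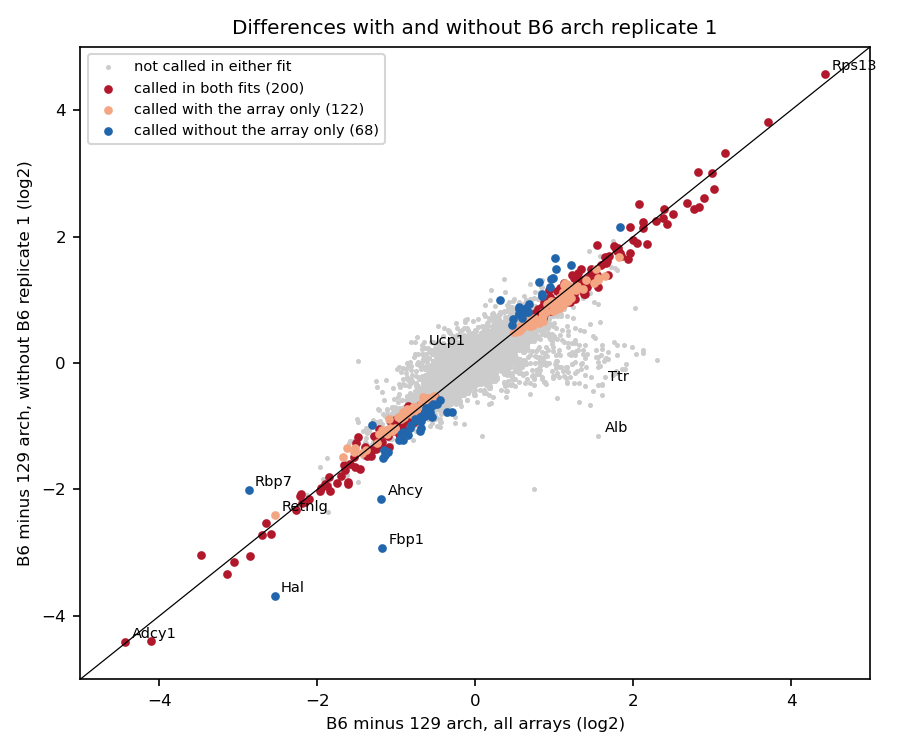
B6 minus 129 arch difference (log2) with all arrays on the x axis and without B6 arch replicate 1 on the y axis, for 22180 genes, with the line of equality. The 200 genes called both ways (red) lie along the line, Hal, Fbp1 and Ahcy (blue) lie below it, and Alb and Ttr are near 0 or under it without that array.

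White adipocyte genes (13 measured) had a median of -0.53 with all arrays and 0.11 without replicate 1, brown adipocyte genes (11) of -0.67 and 0.21, genes of fatty acid synthesis (13) of -0.41 and 0.08, and hepatocyte genes (18) of 1.43 and 0.05. No member of these lists was called. The strain differences in fat and liver markers thus lay on 1 array, and the medians of the other 2 B6 arrays were within 0.38 of the 129 mean. In all, 31 of the 54 lists had no called member, and 38 of their 741 measured genes were called, against 1.45% of all genes. The lists were put together with earlier results of these arrays known, so nothing is read from that count.

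**Figure D5:**
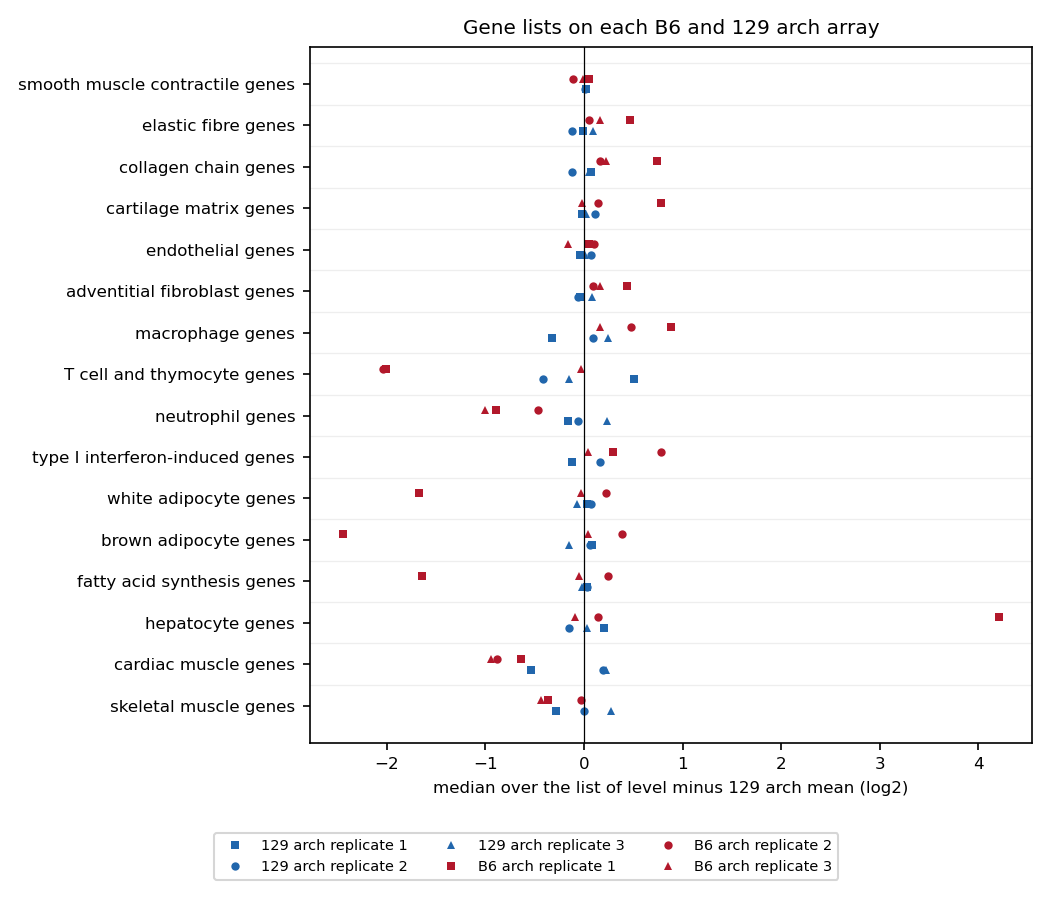
Median over each list of the level minus the 129 arch mean (log2, x axis), with 1 point for each B6 (red) and 129 (blue) arch array. Replicate 1 of B6 (red squares) is at 4.21 for hepatocyte genes and at -2.45 for brown adipocyte genes, while the smooth muscle lists of all 6 arrays lie between -0.11 and 0.05.

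Called genes often lay side by side. In the reference gene order 32 of 320 placed called genes had a called gene next to them, against 624 of all 21994 placed genes (2.84%). Of the 16 adjacent pairs 12 had the same direction. They included Slamf9 and Igsf9 on chromosome 1 (1.38 and 2.77), Hdhd3 and Alad on chromosome 4 (-0.97 and -0.87), Fbxo44 and Fbxo2, of the ubiquitin ligase adaptors (2.13 and 1.09), Zfp109 and Zfp108 on chromosome 7 (1.34 and 1.12), and Trim34a and Trim12a. Pairs in opposite directions included Glrb, a glycine receptor subunit, beside Pdgfc, a platelet-derived growth factor (-1.95 and 0.59). The calls of Fbxo2, Zfp108, Zfp109 and Pdgfc each failed without B6 replicate 3 or 129 replicate 1 and in further left-out fits, in all 9 for Pdgfc (0.0505 to 0.177, range 0.00228 to 0.329), whereas those of Igsf9, Hdhd3, Fbxo44 and Glrb were kept. By chromosome the called share ran from 0.285% on chromosome 10 to 2.32% on chromosome 18, leaving out the Y chromosome, the mitochondrial genome and unplaced genes with none called.

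The levels in the other arrays place the 96 genes called in all fits. The mean of the 129 root arrays, a different stretch of aorta from the same strain, was nearer 129 arch than B6 arch for 79 of them and nearer B6 arch for 17. Among the latter were Olig1, at 3.81 to 4.40 in 129 root, and Rab6b, at 8.01 to 8.51. The mean of the DBA arch arrays was nearer 129 for 51 and nearer B6 for 45. In DBA, Rps13 was at 7.64 to 7.92, as in B6, and Rpl3 at 11.53 to 11.84 and Trim12c at 6.14 to 6.56, as in 129. Adcy1 was at 5.12, 6.85 and 4.80 in DBA, and the 6.85 came from the replicate in which Nppa was at 12.86. Trim12a, Trim30d, Zfp982, Serpina1d and 2610507I01Rik were at or under 5.09 on every DBA arch array, below every B6 arch array. Since the probes of an array are designed on one reference sequence and strain variants were not used here, a difference in level and a difference in match to the probes cannot be told apart for any single gene.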

How the data were processed

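RNA (250 ng) from pooled aortae was hybridised to Affymetrix Mouse Gene 2.1 ST arrays. The deposited values are log2 intensities per transcript cluster, normalised by the authors with Affymetrix Expression Console. Version, normalisation method and genome build were not given in the sources used here. Values ran from 0.668 to 13.573. Of 41345 clusters, 23521 had 1 symbol in the platform annotation, 1820 several and 16004 none, and the cluster brightest on average across the 12 arrays stood for its symbol (22180 genes, 1082 with several clusters). Among called genes 22 had several clusters, of which 6 disagreed in sign.

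The 9 arch arrays were fitted with limma 3.58.1 in R 4.3.3 (lmFit, eBayes) with strain as factor, after the 3-strain analysis of variance of the methods, with two-sided tests and Benjamini-Hochberg adjustment over all genes at 0.05. The DBA arrays thus entered through the shared spread. Among them, DBA arch replicate 2 was high for heart and lung genes. Nppa was at 12.86 on it, against 4.87 and 6.29 on the other DBA arch arrays, and Sftpc at 10.01, against 3.74 and 3.53. Since each array was a separate pool, the p-values rest on the variation among pools. The number of arrays limits the precision. The fit was tested on simulated data.

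Members and lists were chosen with earlier results of these data known. Genes named were the 12 largest differences in each direction kept in all left-out fits, with no overlap of the B6 and 129 arrays. Named as well were up to 4 called genes per list, called candidates of mapped loci, genes of known strain variants and organ markers. The 10 largest calls lost or gained without B6 replicate 1 were also named. Further genes are marked in the text as chosen with their values known, or are partners given beside a named gene. Alternatives were omission of arrays, the B6 and 129 arrays alone, a replicate block, other scalings, priors and weights, brighter genes only, cluster means and the methods' Tukey-Kramer test. Promoters came from RefSeq (GRCm38.p6), matched by symbol, and 21994 genes were placed by gene identifier in the same assembly.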

Additional observations from a re-analysis of the deposited data

How the results depend on the processing

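All 322 called genes kept their direction under every alternative that tested them. The arrays of the strains did not overlap for any of these genes, so omissions, weights, blocks, priors and tests could not reverse a direction. Only quantile normalization, median centring and the mean of clusters could have reversed one, and they did not. The number of calls moved with the spread each fit assumed. It was 190 (99 higher and 91 lower in B6) with the 6 arrays of both strains alone, 1412 (690 and 722) with array weights, in which B6 replicate 3 weighed 5.36 and B6 replicate 1 weighed 0.31, and 57 (30 and 27) with the methods' Tukey-Kramer test after Benjamini-Hochberg adjustment. At an unadjusted threshold that test gave 1514 and limma 2673. Leaving out 1 array gave 116 to 282 calls, 61 to 150 higher and 53 to 137 lower. The correlations of same-numbered B6 and 129 arrays were -0.02, 0.11 and -0.07, and those of arrays with different numbers ran from -0.09 to 0.1. With 3 arrays per strain, these values cannot show whether the replicate numbers paired the samples. The fit with the replicate number as a block gave 186 calls (102 and 84). Quantile normalization, median centring, the mean of clusters, the robust trended prior and the brighter genes alone gave 325, 312, 321, 438 and 379. The alternatives were also followed for 95 genes, some of which are not named here. Several of them, such as Hal and Fbp1, were not called in the main fit and had no call to lose. Of the 95 genes, 62 lost their call under Tukey-Kramer, among them Adcy1, Cxcl14 and Trim12a, and 4 under quantile normalization. Without DBA arch replicate 2, the array high for heart and lung genes, 282 genes were called, 251 of them among the 322. In that fit 14 of the 95 genes lost their call, while the adjusted p of Adcy1 in limma was 2.66e-05. Without both that array and B6 replicate 1, 287 genes were called (139 higher and 148 lower in B6), 200 of them among the 322. Pools of few arrays, no detection calls and these arrays with transcripts of other organs limit what can be said of single genes.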

Other observations

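A list of neutrophil genes was put together after Retnlg and Cxcr2 were seen among the called genes, so its values are a description of genes partly chosen for this pattern. Of 16 measured genes 3 fell in B6, where 0.636% of all genes fell, none rose and 13 were not called. The 3 were Retnlg, Cxcr2 and Csf3r, the receptor of granulocyte colony-stimulating factor, and all 3 calls failed without B6 replicate 1 (adjusted p = 0.0846 to 0.116 in limma). Csf3r was at 5.45, 6.17 and 5.52 in B6 and at 7.02, 7.17 and 7.58 in 129 (-1.54 ± 0.27, adjusted p = 0.0329 in limma), a call that failed without DBA replicate 1, B6 replicate 1 or 3 or any 129 array (0.0525 to 0.125, range over all alternatives 0.00246 to 0.312). S100a8, the calcium-binding protein that fills neutrophils, was at 3.37, 4.93 and 3.70 against 6.06, 5.63 and 6.20 without passing (adjusted p = 0.0778). Differences over the list ran from -2.53 to 0.06, with a median of -0.74, or -0.75 without B6 replicate 1.

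Several genes of signalling and development outside the lists were called in all left-out fits and are named after their values were seen. Lower in B6 were Ldb2, a cofactor of LIM-domain transcription factors, at 7.42, 7.40 and 7.14 against 9.45, 9.37 and 9.44 (-2.10 ± 0.11, adjusted p = 8.25e-05), Mrgprf, an orphan receptor, at 7.57 to 8.35 against 9.77 to 9.85, Npy, the neuropeptide of sympathetic nerves, at 4.46 to 4.92 against 6.33 to 7.24, Il7r, the interleukin-7 receptor of lymphocytes, at 4.43 to 4.66 against 6.15 to 6.49, and Rac2, a GTPase of blood cells, at 7.65 to 7.78 against 8.43 to 8.63. Higher in B6 were Ly75, an endocytic receptor of dendritic cells, at 7.69 to 7.81 against 5.40 to 5.54 (4.88-fold, adjusted p = 0.00019), Fez1, an adaptor of axonal transport, at 8.12 to 8.50 against 5.87 to 5.89, Nnmt, which methylates nicotinamide, at 6.65 to 7.13 against 4.77 to 5.17, Wnt2b, a Wnt ligand, at 7.83 to 8.27 against 6.61 to 6.86, and Scpep1, a serine carboxypeptidase first found in vascular smooth muscle, at 11.03 to 11.38 against 9.76 to 10.01.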
